A study of Mus musculus with 4 samples.

Results

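The 10 genes described here encode inducible immunity GTPases: Gbp2, Gbp3, Gbp4, Gbp5 and Gbp7 of the guanylate-binding proteins, and Igtp, Irgm1, Irgm2, Iigp1 and Tgtp1 of the immunity-related GTPases. They were taken by symbol from the gene annotation of the count tables, 10 of 27998 genes, and each symbol occurred once. Their transcripts were counted in CD45+ cells sorted live from collagenase-digested tumours of wild-type (wt) 129S6 mice. The groups were 4, each with 1 library: 200 µg of control rat IgG2a, anti-PD-1 (RMP1-14), anti-CTLA-4 (9D9), or both checkpoint antibodies, injected on days 3, 6 and 9 after tumour transplant. The comparisons ask how far these genes' levels in the tumour's myeloid and lymphoid cells differed under each antibody and under both. The labels do not say how many mice went into a library, or their age.

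Both families are large GTPases that cells make in quantity after interferon, above all interferon-gamma. The proteins gather on vacuoles that hold bacteria or parasites and on bacteria in the cytosol, damage or tag those compartments, and help deliver microbial products to inflammasomes. Irgm1, Irgm2 and Igtp belong to the regulatory branch of the immunity-related GTPases, which keeps the effector branch (Iigp1 and Tgtp1 here) inactive on the cell's own membranes. In tumours the genes are often read as a footprint of interferon signalling in the cells that express them.

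Of the 10 members 8 lie near others on 2 chromosomes (mm10), while Gbp4 and Iigp1 are each the only member on theirs. Gbp5 (chr3:142493978-142522344), Gbp7 (chr3:142530342-142550149), Gbp3 (chr3:142560026-142573209) and Gbp2 (chr3:142620602-142638008) follow each other on the plus strand. Gbp4 is at chr5:105115767-105139586 on the minus strand. Irgm1 (chr11:48861968-48871683) and Tgtp1 (chr11:48985327-48994172) are on the minus strand, and Igtp (chr11:58199556-58207591) and Irgm2 (chr11:58199618-58222782) on the plus strand. In these annotations Igtp and Irgm2 overlap on 1 strand, as do Gbp4, Gbp8 and Gbp9, so their reads can be shared where exons coincide. Of the 98-base stretches in the last 500 bases of its transcripts, 72.1% were shared by Tgtp1 with Tgtp2 or Gm12185, and 5.14% by Gbp4 with other Gbp genes. For the other 8 members the share was 0. The Tgtp1 counts are therefore uncertain, since a read that fits both copies may have been dropped or assigned to either.

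Promoters are shown because all 10 members were above control in the myeloid cells of both single-antibody libraries, as described below. RefSeq promoters (GRCm38.p6) were at hand for 8 of the 10 members, all but Gbp4 and Iigp1. In the 250 bases before a start site, GAAA, any 2 bases and GAAA again (the type of an interferon-stimulated response element, read on both strands, so also TTTC, any 2 bases, TTTC) occurred in 8 of these 8 genes, and in 2.98% of 32851 promoters of that length. The letters TTCNNNGAA (a gamma-activated site type, the same on both strands) occurred in 5 of the 8, and in 7.02% of all promoters. Both together occurred in 0.332% of all promoters. These shares count promoters, while the members are counted by gene. Gbp3 had a second start site with neither kind, so 8 of 9 member start sites held a match. Below, both kinds of match are in capitals, and 15 bases are kept on each side. Igtp, Irgm2 and Tgtp1 carry the 2 motifs side by side in almost the same words, the second kind first:
Igtp, chr11:58199496-58199546, plus strand: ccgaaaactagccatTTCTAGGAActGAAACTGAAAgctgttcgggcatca
Irgm2, chr11:58214887-58214937, plus strand: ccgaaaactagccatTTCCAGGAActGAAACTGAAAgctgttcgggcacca
Tgtp1, chr11:48992299-48992349, minus strand: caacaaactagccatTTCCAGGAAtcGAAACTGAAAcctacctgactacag
Gbp7, chr3:142530215-142530307, plus strand: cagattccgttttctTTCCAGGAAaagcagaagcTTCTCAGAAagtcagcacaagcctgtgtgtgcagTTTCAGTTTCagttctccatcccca

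In Igtp, 24 bases lay between GAAACTGAAA and the start site, against 54 in Irgm2 and 67 in Tgtp1. Gbp2 (TTTCACTTTC), Gbp3 (TTTCAGTTTCTATTTC, with 2 overlapping matches) and Irgm1 (GAAATAGAAACCGAAA, also 2 overlapping matches) held only the first kind. Gbp5 held TTCTGGGAA, TTTCAATTTC and TTCTCAGAA, with 236, 155 and 43 bases to the start site. These start sites are those of RefSeq, and they differ in part from the annotation that gave the gene positions above. In that annotation the Gbp2 and Irgm1 matches lie within exons of these genes. The Gbp5, Irgm2 and Tgtp1 matches lie inside the gene spans given. A match is a description of the letters, and binding was not measured.

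The 4 libraries held 14491 cells that the authors listed in their table of clusters, between 3336 and 3945 per library, with 11176246 to 13374294 unique molecular identifiers (UMIs, each 1 captured transcript). Levels are given in CPM (counts-per-million: a gene's UMIs over all UMIs of the same cells), with an exact Poisson 95% interval that covers counting error only. With 1 library per group, differences between mice, tumours and library preparations cannot be told apart from the treatments, and no test across groups was possible. Of the deposited clusters 9 were taken as myeloid and 7 as lymphoid by marker genes. Clusters 1, 2, 4, 7 and 15 were macrophage/monocyte-like, with 9 to 12 of 12 markers detected in at least 25% of cells, 12 was neutrophil-like and 17 migratory dendritic cell-like. Cluster 0 (led by Gm9733, Gpr141, Gm4841 and Il1r2) and cluster 11 (led by Plet1, Timd4, Cd24a and Mgl2) kept their numbers. They had 10 and 7 of the 12 macrophage/monocyte markers detected. Cluster 0, with 1 neutrophil marker among its 10 leading genes, was left out of the macrophage/monocyte-like group although its marker count lay in the same range. Clusters 3, 6, 8, 9 and 10 were T cell-like and 5 NK cell-like. Cluster 14, led by Gzmg, Ctsg and Gzmf, had 8 of 8 NK cell markers detected in at least 25% of cells. It also holds 1 mast cell or basophil marker among its 10 leading genes. Without cluster 14, the summed lymphoid log2 ratio to control given below would be 0.12 (0.04 to 0.21) under anti-PD-1. It would be -0.35 under anti-CTLA-4 and -0.15 in the combination. The authors' own names for the clusters may be others. A set of 109 cell barcodes occurred in more than 1 library.

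The members were detected widely: 61807 of their UMIs were counted, and 77.65% of all cells held at least 1. In the myeloid clusters, the summed level of the 10 genes was 1199 CPM in the control library, 2136 in anti-PD-1, 1609 in anti-CTLA-4 and 1205 in the combination. Anti-PD-1 was thus highest, anti-CTLA-4 between, and the combination at the level of the control. The log2 ratio to control was 0.83 (95% counting interval 0.80 to 0.87) under anti-PD-1, 0.42 (0.39 to 0.46) under anti-CTLA-4 and 0.01 (-0.03 to 0.05) in the combination. Against the single antibodies, the combination was lower by 0.83 (log2 ratio -0.83) than anti-PD-1 and by 0.42 (-0.42) than anti-CTLA-4. All 3 ratios to control share the 1 control library.

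In the lymphoid clusters the order was another. The summed level was 795 CPM in control, 840 in anti-PD-1, 591 in anti-CTLA-4 and 710 in the combination. The log2 ratio to control was 0.08 (-0.00 to 0.16) under anti-PD-1, -0.43 (-0.51 to -0.35) under anti-CTLA-4 and -0.16 (-0.24 to -0.08) in the combination. Anti-CTLA-4 was thus the lowest library in lymphoid cells while it was the second highest in myeloid cells.

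**Figure D1:**
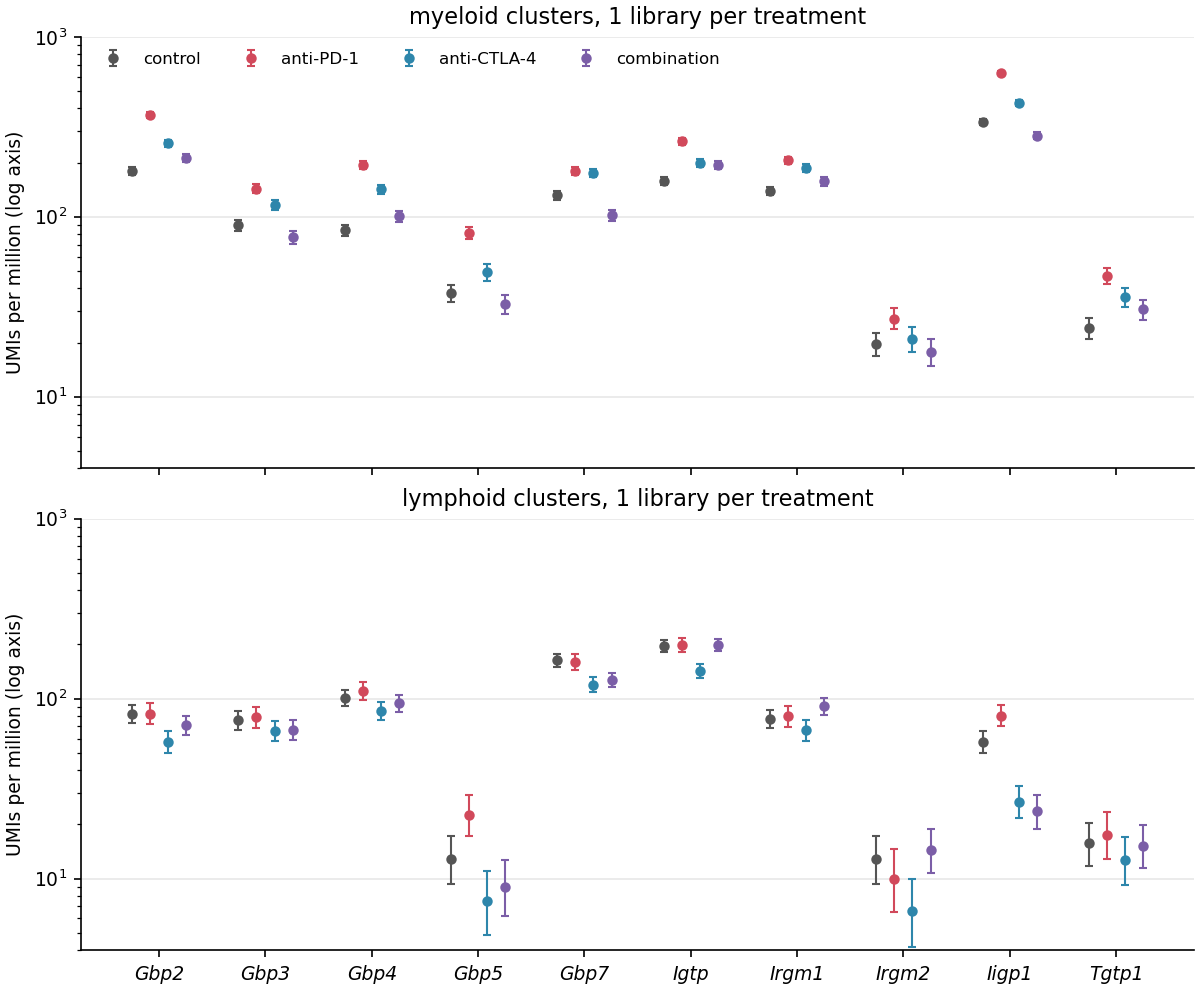
Level of each of the 10 genes in CPM (log axis) in the myeloid clusters (top) and the lymphoid clusters (bottom), with 1 point per library and bars for the exact Poisson 95% interval. Anti-PD-1 is the highest of the 4 libraries for all 10 genes in the myeloid clusters, and Iigp1 in the lymphoid clusters is lower in anti-CTLA-4 (26.7) and the combination (23.6) than in control (57.5).

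Among the guanylate-binding proteins, Gbp2 stood at 179 CPM in the control myeloid cells, 367 in anti-PD-1, 256 in anti-CTLA-4 and 212 in the combination. Gbp2 coats cytosolic bacteria and pathogen vacuoles, and its ratio of anti-PD-1 to control was 1.03 (0.95 to 1.12, log2). Gbp4, with 84.1, 194, 142 and 101 CPM in the same order, had the highest ratio of the 10 genes for anti-PD-1 (1.21, 1.08 to 1.33) and for anti-CTLA-4 (0.76, 0.62 to 0.89). Gbp5, known for promoting NLRP3 inflammasome assembly, had 37.5, 81.2, 49.0 and 32.6 CPM, so that the anti-PD-1 library alone stood well above the other 3. Gbp3 had 89.6, 143, 116 and 76.9 CPM, the combination being the lowest. Gbp7 had 132, 179, 175 and 102 CPM, with nearly the same level under both single antibodies and the lowest in the combination (log2 ratio to control -0.37, -0.51 to -0.24).

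Among the regulatory GTPases, Igtp had 158 CPM in control, 262 in anti-PD-1, 200 in anti-CTLA-4 and 194 in the combination. Irgm1, which is needed for the survival of infected mice and for restraint of the other family members, had 139, 206, 187 and 157 CPM. For these 2 genes the combination stayed above control, by a log2 ratio of 0.30 (0.19 to 0.40) for Igtp and 0.18 (0.06 to 0.29) for Irgm1. Irgm2 was sparse, at 19.6, 27.1, 20.98 and 17.6 CPM, and only the anti-PD-1 ratio (0.47, 0.18 to 0.76) had an interval above 0.

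The effector Iigp1, which loads onto parasite vacuoles, had 335 CPM in control, 629 in anti-PD-1, 427 in anti-CTLA-4 and 282 in the combination. The combination was below control (-0.25, -0.33 to -0.17) and anti-PD-1 above it (0.91, 0.84 to 0.97). Tgtp1, with the shared-read limit above, had 24.1, 47.1, 35.7 and 30.5 CPM.

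A 1.5-fold difference was used to count members, among genes with at least 20 UMIs in the 2 libraries. In the myeloid clusters 7 of 10 members were at least 1.5-fold higher in anti-PD-1 than in control, where 7.36% of 10662 genes were, and Gbp7, Irgm1 and Irgm2 were under that fold. At 2-fold it was 3 of 10 (Gbp2, Gbp4 and Gbp5; 2.58% of genes). The median log2 ratio of the 10 was 0.82, beside -0.08 over all genes. For anti-CTLA-4 it was 1 of 10 (Gbp4; 8.04% of genes), with all 10 above 0 and a median of 0.40 beside -0.12. For the combination it was 0 of 10 (8.09% of genes), with a median of 0.01 beside -0.18 and 5 members on each side of 0 (Irgm2 changes side under median-of-ratios scaling, and Gbp2 under the control makeup). Against anti-PD-1, 8 of 10 were at least 1.5-fold lower in the combination (11.6% of genes), and 4 of 10 against anti-CTLA-4 (10.3%).

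**Figure D2:**
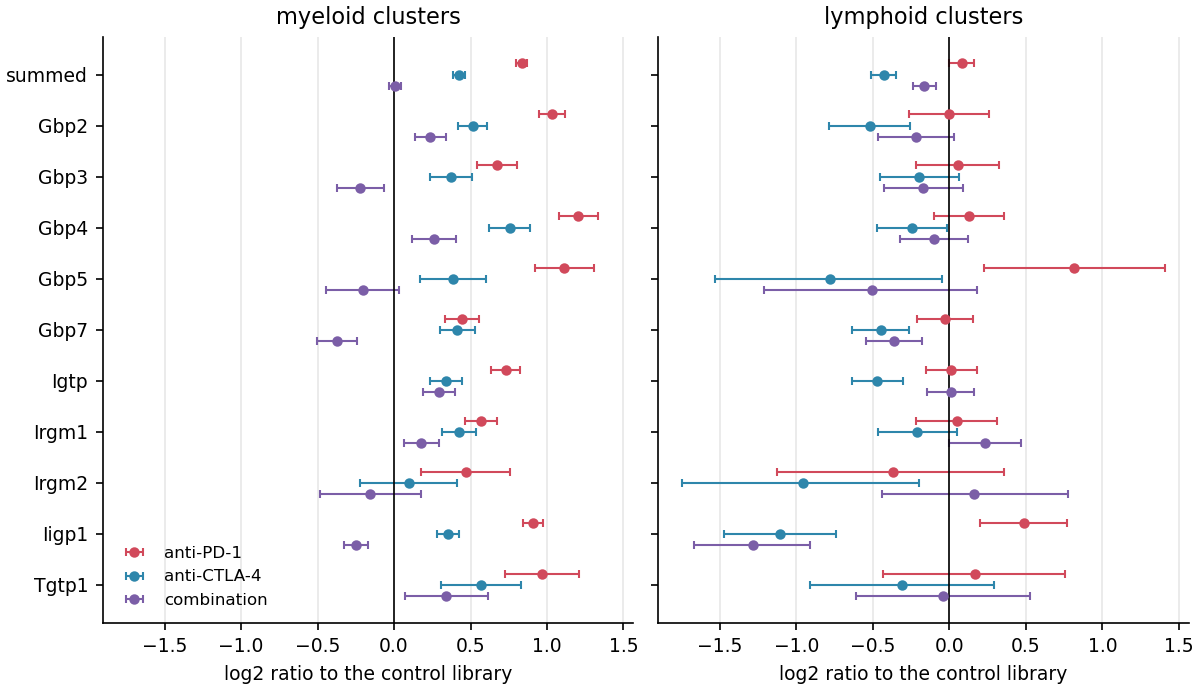
Log2 ratio of each treated library to the control library for the summed level and for each of the 10 genes, in myeloid (left) and lymphoid clusters (right). Bars are exact 95% counting intervals and the line at 0 marks equality with control. All 10 anti-PD-1 points are right of 0 in myeloid clusters, and all 10 anti-CTLA-4 points are left of 0 in lymphoid clusters, where Irgm1 changes side under the control makeup.

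In the lymphoid clusters, Igtp had 197 CPM in control, 198 in anti-PD-1, 142 in anti-CTLA-4 and 198 in the combination, so that 3 libraries were level and anti-CTLA-4 lower. Gbp7 had 163, 160, 120 and 127 CPM, with both libraries that had received anti-CTLA-4 below the others. Gbp4 had 101, 111, 85.4 and 94.2 CPM. These 3 genes were about as high in lymphoid as in myeloid control cells, the lymphoid level being 120% to 124% of the myeloid one. Gbp2 had 82.6, 82.4, 57.5 and 70.9 CPM, Gbp3 75.7, 78.6, 66.1 and 67.2, and Irgm1 77.1, 79.7, 66.7 and 90.6. None of these 3 differed between anti-PD-1 and control beyond the counting interval.

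Gbp5 and Iigp1 were the members that spread most among the lymphoid libraries. Gbp5 had 12.8 CPM in control, 22.5 in anti-PD-1, 7.47 in anti-CTLA-4 and 9.00 in the combination, from 26 to 59 UMIs each. Iigp1 had 57.5, 80.5, 26.7 and 23.6 CPM. Its log2 ratio to control was -1.11 (-1.48 to -0.74) in anti-CTLA-4 and -1.28 (-1.67 to -0.91) in the combination. The higher value in anti-PD-1 (0.49, 0.20 to 0.77) rested on 1 cell with 44 of the 211 UMIs: with the top cell of each library left out it was 0.22 (-0.09 to 0.53). Irgm2 (12.8, 9.92, 6.61 and 14.3 CPM) and Tgtp1 (15.7, 17.5, 12.7 and 15.2 CPM) were near the limit of what these depths can tell apart.

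In the lymphoid clusters 1 of 10 members (Gbp5) was at least 1.5-fold higher in anti-PD-1 than in control, where 8.76% of genes were. In anti-CTLA-4, 3 of 10 (Gbp5, Irgm2 and Iigp1) were at least 1.5-fold lower (13.9% of genes), 10 of 10 were below 0 (7 with an interval that excluded 0, and Irgm1 above 0 under the control makeup), and the median was -0.46 beside -0.05 over all genes. In the combination 1 of 10 (Iigp1) was lower (11.9% of genes). Relative to anti-PD-1 the combination had 2 of 10 lower (Gbp5 and Iigp1; 11.1% of genes), and relative to anti-CTLA-4 1 of 10 higher (Irgm2; 10.4%).

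Free RNA from lysed cells can add counts of myeloid genes to lymphoid cells. The source of such counts was not tested here. The macrophage C1q genes, which T and NK cells do not make, stood in lymphoid clusters at 6.71% of their myeloid level in control, 5.12% in anti-PD-1, 3.11% in anti-CTLA-4 and 5.53% in the combination, and Lyz2 at 8.85%, 7.95%, 3.86% and 5.83%. Iigp1 was at 17.2%, 12.8%, 6.25% and 8.38%. In the anti-CTLA-4 library and the combination its share was above those of C1q and Lyz2. It was nearer to them there than that of any other member. The other 9 members were at 15.2% or more in every library. The lymphoid C1q share was lowest in anti-CTLA-4, the library with the lowest lymphoid member level, and its part in that result was not tested. With Iigp1 left out of the sum, the lymphoid anti-CTLA-4 ratio was -0.39 (-0.47 to -0.30).

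Myeloid and lymphoid cells also differed within each library. The summed level was higher in myeloid clusters by a log2 ratio of 0.59 in control, 1.35 in anti-PD-1, 1.45 in anti-CTLA-4 and 0.76 in the combination. For Iigp1 the gap was the widest of the 10 genes in every library, while Gbp4, Gbp7 and Igtp were lower in myeloid than in lymphoid clusters of control, and Gbp7 (102 against 127 CPM) and Igtp (194 against 198) also in the combination.

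The count of member UMIs per cell shows whether many cells or few carried the level. After each cell was thinned to 1000 UMIs, 51.1% of myeloid cells held at least 1 member UMI in control, 73.6% in anti-PD-1, 64.6% in anti-CTLA-4 and 56.0% in the combination. At least 5 member UMIs were in 6.39%, 13.8%, 7.16% and 4.73% of them. Before thinning the shares with at least 1 were 79.9%, 90.5%, 83.7% and 76.8%, at median depths of 3837.5, 3284, 3226 and 3066 UMIs per cell. In lymphoid clusters the thinned shares with at least 1 were 49.4%, 50.7%, 42.5% and 46.4%. Thinning left out 6, 80, 63 and 132 myeloid cells and 5, 114, 60 and 189 lymphoid cells. The NK cell-like cluster 5 had the lowest thinned shares of the larger lymphoid clusters (29.0% to 43.8%), and cluster 14 had 7.69% to 34.3%.

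**Figure D3:**
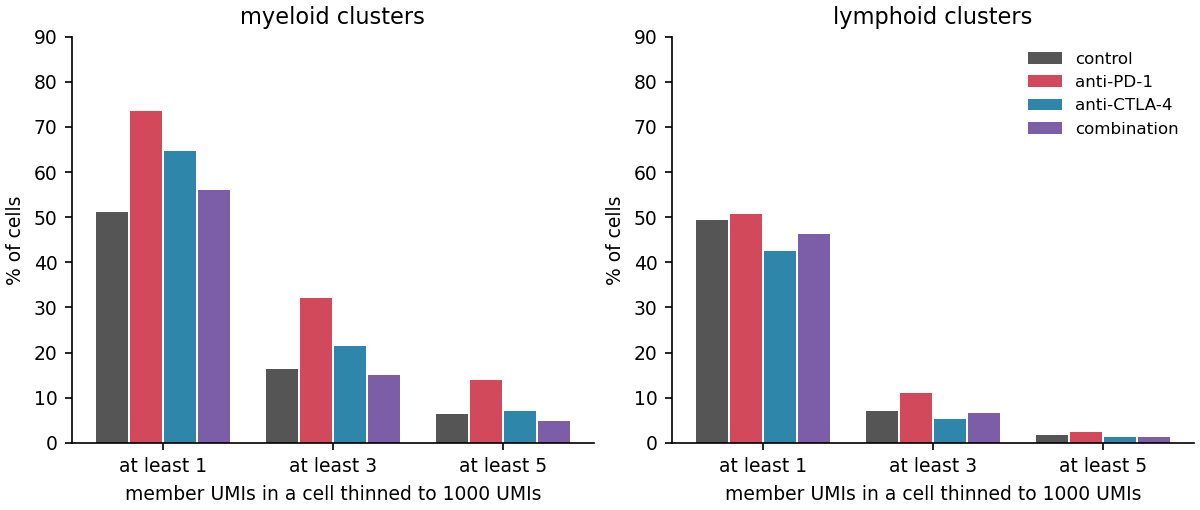
Percentage of cells with at least 1, 3 or 5 UMIs of the 10 genes after thinning each cell to 1000 UMIs, in myeloid (left) and lymphoid clusters (right), 1 bar per library. In the myeloid clusters the anti-PD-1 bar is the highest at each threshold (73.6% at 1 and 13.8% at 5), and in the lymphoid clusters the bars at 1 lie between 42.5% and 50.7%.

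Level differed between clusters as well as between libraries. Averaged over the 4 libraries, cluster 0 (2239 CPM), the neutrophil-like cluster 12 (2234) and cluster 7 (2002), whose leading genes include Rsad2, Ifit3 and Nos2, had the highest means. Clusters 13 (1547), 4 (1362), 1 (1357) and 2 (1253) followed. Cluster 13, in neither class, had 11 of 12 macrophage/monocyte and 5 of 9 T cell markers detected. Its level therefore cannot be assigned to 1 cell type. Of the lymphoid clusters the Foxp3-led cluster 10 (1082) and the Cd8b1-led cluster 8 (987) had the highest means, cluster 8 being above cluster 10 in anti-CTLA-4 (957 against 780 CPM) and in the combination (905 against 844). The NK cell-like cluster 5 (532) and cluster 14 (330) had the lowest. Most neighbours in this order differed by less than the spread of their libraries, among them clusters 0, 12 and 7, clusters 4, 1 and 2, and clusters 10 and 8. Iigp1 is among the 10 genes that lead cluster 0, so its height there partly restates how the cluster was drawn.

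**Figure D4:**
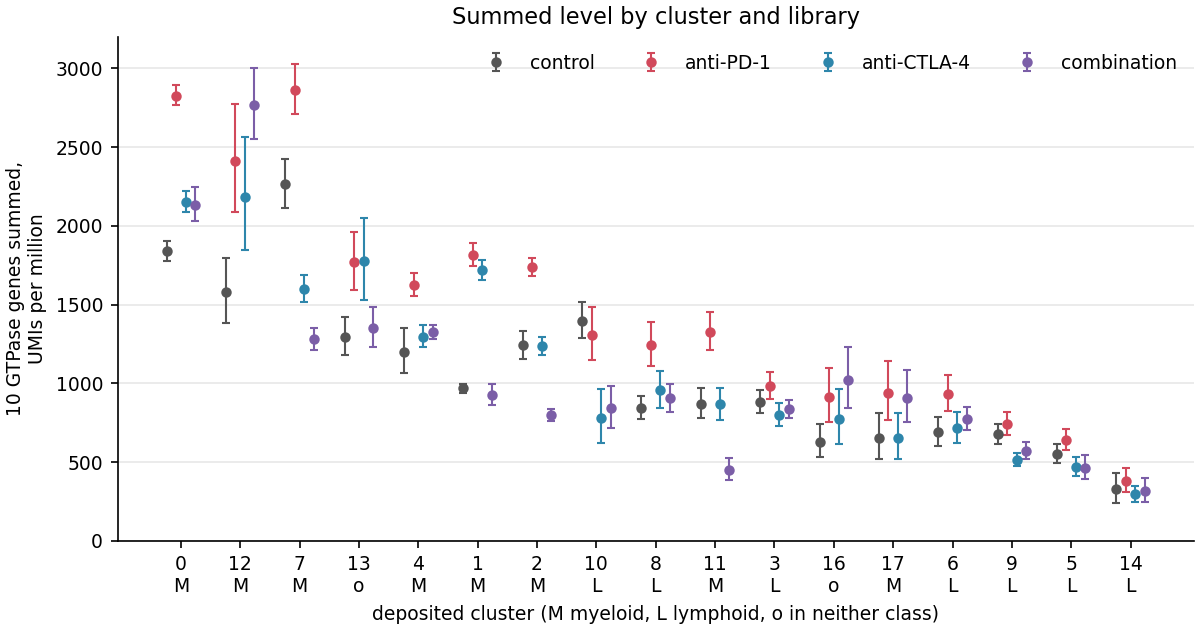
Summed level of the 10 genes in CPM in the 17 clusters with at least 20 cells in every library, ordered by their mean over libraries, with exact Poisson 95% intervals (M myeloid, L lymphoid, o neither class). The anti-PD-1 point is the highest of the 4 in 13 of 17 clusters, and the combination point is the highest in cluster 12 (2767).

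Of the 17 clusters with at least 20 cells in every library, anti-PD-1 was the highest library in 13, among them 7 of 8 myeloid and 6 of 7 lymphoid clusters. Compared with control it was above in 8 of 8 myeloid clusters, each with a counting interval above 0, by log2 ratios of 0.34 to 0.91. In lymphoid clusters it was above in 6 of 7, with intervals above 0 in 2. The largest of these was in cluster 8, with 843 CPM in control, 1243 in anti-PD-1, 957 in anti-CTLA-4 and 905 in the combination (0.56, 0.36 to 0.76 for anti-PD-1 against control).

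The anti-CTLA-4 library was above control in some myeloid clusters, near it in others and below it in cluster 7. Cluster 1, a macrophage/monocyte-like cluster led by Cd72 and Vcam1, had 969 CPM in control, 1815 in anti-PD-1, 1718 in anti-CTLA-4 and 925 in the combination. Cluster 7 had 2266, 2865, 1600 and 1279, with anti-CTLA-4 below control (-0.50, -0.63 to -0.38). Over the 8 myeloid clusters anti-CTLA-4 was above control in 5 and below it in 3, with counting intervals that excluded 0 in 3 and 1 of these. Over the 7 lymphoid clusters it was above control in 2 and below it in 5, with such intervals in 0 and 2.

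The combination was above control in some myeloid clusters and below it in others. In cluster 12 it was the highest library, with 1577 CPM in control, 2411 in anti-PD-1, 2183 in anti-CTLA-4 and 2767 in the combination, from 38 to 116 cells each. In cluster 2, led by Nov, Pf4 and Ccl8, it was the lowest (1243, 1737, 1235 and 798 CPM), as it was in cluster 11 (872, 1328, 866 and 450 CPM). The plasmacytoid dendritic cell-like cluster 16 also had its highest value in the combination (1023 CPM), where 1 cell held 33.0% of the member UMIs, and 744 CPM remained without it, below the 836 of anti-PD-1 without its own top cell.

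Single members are given for a few clusters. In the neutrophil-like cluster 12, Irgm1 had 276, 381, 752 and 551 CPM (libraries in the order used above) and Gbp2 465, 492, 550 and 756. Iigp1 in that cluster had 135, 160 and 70.0 CPM in control, anti-PD-1 and the combination. In the 41 cells of anti-CTLA-4 Iigp1 had 0 UMIs, where 3 UMIs would have given 43.4 CPM. The macrophage gene C1qb stood at 1614 CPM in cluster 12 over all libraries, beside 2351 in cluster 0 and 6963 in cluster 1, and the part of RNA from other cells in these member counts was not tested. In the Foxp3-led cluster 10, Iigp1 had 224, 367, 55.0 and 78.7 CPM, and 1 anti-PD-1 cell held 66.7% of that library's UMIs. Without the top cell of each library, anti-PD-1 stood at 123 CPM beside 206 in control. The summed level of cluster 10 was highest in control, with 1397, 1307, 780 and 844 CPM, and without the top cells anti-PD-1 had 1056 beside 1328.

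Clusters 0 and 7, both with a high summed level, did not order the libraries alike. In cluster 0, Iigp1 had 503 CPM in control, 836 in anti-PD-1, 648 in anti-CTLA-4 and 601 in the combination, and Gbp2 334, 521, 347 and 350. All 3 treated libraries were thus above control for Iigp1 there, although the combination was below control over the whole myeloid class. In cluster 7, Iigp1 had 604, 748, 391 and 272 CPM and Gbp2 361, 663, 317 and 245, with anti-CTLA-4 and the combination below control for both genes. In the migratory dendritic cell-like cluster 17, Gbp5 had 55.7, 178, 121 and 59.2 CPM, from only 26 to 38 cells per library.

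Some high values of single genes rested on 1 cell. In cluster 16 Gbp3 had 347 CPM in the combination and 39.7 without its top cell, which held 34 of its UMIs. In the T cell-like cluster 6 Irgm1 had 72.1, 110, 81.4 and 136 CPM, and the combination had 94.6 without the cell that held 24 of its 78 UMIs.

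Over 54 groups of cluster and library with at least 50 cells, the 45 pairs of members had Pearson correlations between 0.14 and 0.89 with a median of 0.52, on log2(CPM + 10). Gbp2 with Gbp5 was the highest pair (0.89) and Gbp7 with Tgtp1 the lowest (0.14). Among the genes outside the members whose level was most like the summed level were Gbp2b (0.87), Samhd1 (0.84), Rtp4 (0.83), Tmbim6 (0.82), Parp14 (0.82), 1600014C10Rik (0.82), Zbp1 (0.81), Slfn1 (0.81) and Nampt (0.79), of 6654 genes compared. The groups share libraries and depth, so these values describe likeness only.

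The myeloid class was made of different clusters in each library. Cluster 1 held 48.9% of myeloid cells in control, 13.35% in anti-PD-1, 18.8% in anti-CTLA-4 and 10.6% in the combination. Cluster 0 held 23.25%, 39.0%, 29.1% and 11.2%, and clusters 2 and 4 together were the main ones in the combination (28.75% and 24.6%). With every library weighted by the cluster makeup of control, the log2 ratio to control was 0.73 under anti-PD-1, 0.44 under anti-CTLA-4 and -0.07 in the combination. These weighted ratios have no counting interval. Cluster 15 had 8.24% of the control weight, while its levels under anti-PD-1, anti-CTLA-4 and both came from 9, 14 and 14 cells. In the macrophage/monocyte-like clusters alone, which leave out cluster 0, the summed level was 1063, 1833, 1461 and 1097 CPM. There 6 of 10 members were at least 1.5-fold higher in anti-PD-1 than in control (8.49% of genes). Lymphoid makeup also differed: the Foxp3-led cluster 10 held 12.6% of lymphoid cells in control, 7.95% in anti-PD-1, 4.53% in anti-CTLA-4 and 6.26% in the combination. Weighted by the control makeup, the lymphoid ratio was 0.23 for anti-PD-1 and -0.22 for anti-CTLA-4.

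Other genes of the 2 families were read from a list of 18, of which 16 were in the count tables. In myeloid clusters 9 of the 12 with enough UMIs were at least 1.5-fold higher in anti-PD-1 than in control (7.36% of all genes), with a median of 0.80 beside -0.08 over all genes. Gbp2b had 289 CPM in control, 541 in anti-PD-1, 448 in anti-CTLA-4 and 266 in the combination. Ifi47 had 182, 324, 264 and 201 CPM. Gm4841 had 214, 606, 314 and 355 CPM, and Gm4951 52.2, 113, 81.5 and 78.9, so these 2 genes, unlike Iigp1, were above control in the combination as well.

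Gbp8 (0.78), Gbp9 (0.99), Tgtp2 (0.68), F830016B08Rik (1.49) and 9930111J21Rik1 (0.64, from 18 against 13 UMIs) were the others past that fold for anti-PD-1, as log2 ratios. Gm5431 (0.57), 9930111J21Rik2 (-0.03) and Irgq (-0.14) were under it. For anti-CTLA-4 5 of 13 were at least 1.5-fold higher (8.04% of all genes; Gbp2b, Gbp8, Gm4951, 9930111J21Rik1 and Irgc1), and for the combination 3 of 13 (8.09%; Gm4951, Gm4841 and Irgc1), where Irgc1 had 25 and 12 UMIs against 9 in control. In lymphoid clusters 3 of 10 were higher in anti-PD-1 (8.76% of all genes; Gbp2b, Gm4951 and Gm4841), while 0 of 9 were higher and 3 of 9 lower in anti-CTLA-4 (13.9%; Gbp9, Tgtp2 and Irgc1). In the lymphoid combination 1 of 9 was higher (Gm4951, 18 against 11 UMIs; 8.22% of all genes) and 1 lower (Irgc1, 11 against 19 UMIs; 11.9%).

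The ligand that induces these genes, Ifng, was counted in lymphoid clusters at 88.8 CPM in control, 193 in anti-PD-1, 92.0 in anti-CTLA-4 and 203 in the combination. The combination had as high a level of Ifng as anti-PD-1 and the control level of the GTPases in myeloid cells. A link between these levels was not tested. The Ifng level rested on a minority of cells. Ifng was detected in 149 of 1443 lymphoid cells in control and 117 of 1031 in anti-PD-1. It was detected in 139 of 1060 in anti-CTLA-4 and 234 of 1453 in the combination. In anti-PD-1, 138 of the 505 lymphoid Ifng UMIs were in 10 cells of the Foxp3-led cluster 10. The receptor chain Ifngr1 was lower than control in myeloid cells of all 3 treated libraries (405, 250, 254 and 222 CPM). Ifngr2 was lower as well (180, 153, 136 and 139).

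Irf1, a transcription factor induced by interferon-gamma, had 111, 226, 172 and 147 CPM in myeloid cells, and Socs1, a feedback inhibitor of the receptor's kinases, 54.8, 114, 114 and 78.8. Irf8 was above control in all 3 (260, 344, 390 and 376). Nlrc5, which drives class I genes, had a counting interval above 0 in anti-PD-1 and not in the other 2 (19.6, 34.6, 23.3 and 20.1 CPM). The other signal genes for anti-PD-1 were Socs3 (0.36), Ptpn2 (0.38), Stat2 (0.18), Jak2 (0.17), Irf9 (0.15), Jak1 (0.03) and Ciita (0.02), as log2 ratios to control. Of these 13 genes, 3 were at least 1.5-fold higher and 1 lower in anti-PD-1, 3 and 1 in anti-CTLA-4, and 0 and 1 in the combination. Over all genes the share that was higher was 7.36%, 8.04% and 8.09% in the 3 libraries, and the share that was lower was 14.3% and 16.2% in the single-antibody libraries, with 2130 of 10653 genes lower in the combination. In lymphoid cells 2 were higher and 1 lower in anti-PD-1 (8.76% and 9.84% of all genes), 1 higher and 5 lower in anti-CTLA-4 (8.59% and 13.9%), and 0 in either direction in the combination (8.22% and 11.9%).

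**Figure D5:**
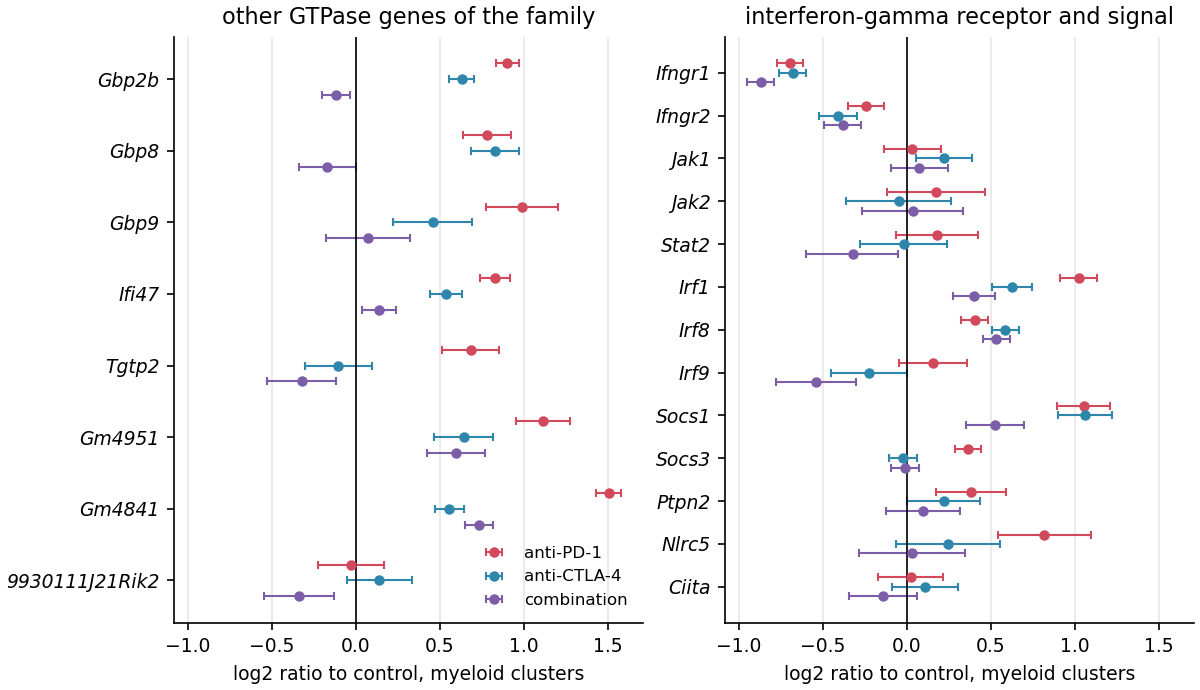
Log2 ratio of each treated library to control in the myeloid clusters for other GTPase genes of the 2 families (left) and for the interferon-gamma receptor and its signal (right), for genes with at least 100 UMIs in each pair of libraries, with exact 95% counting intervals. Gm4841 (214 CPM in control, 606 in anti-PD-1) has the highest anti-PD-1 ratio of the left panel, and Ifngr1 is left of 0 in all 3 libraries (-0.69, -0.68 and -0.87).

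The remaining lists are given for the myeloid clusters. There the share of all genes at least 1.5-fold higher was 7.36% in anti-PD-1, 8.04% in anti-CTLA-4 and 8.09% in the combination. The share at least 1.5-fold lower in anti-PD-1 was 14.3%, so single genes past the fold are near these shares. Of 15 type I interferon-induced genes, 1 was at least 1.5-fold higher in anti-PD-1 (Mx1, 6.43 against 21.1 CPM in control and anti-PD-1) and 1 lower (Cmpk2, 9.05 against 4.40), with a median of 0.19. In anti-CTLA-4 4 were higher, among them Rsad2 (40.3 against 87.4 CPM) and Ifit2 (26.4 against 45.2). Of 9 genes of class I presentation, 9 were above 0 in anti-PD-1 but 2 past the fold (Tapbp, 0.63, and Tap2, 0.61), and 8 of 9 were above 0 in the combination with 0 past it.

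Among 11 genes of the ubiquitin-like conjugation that places these GTPases on membranes, 1 was past the fold in anti-PD-1 (Atg16l1, 0.66; 7.36% of all genes). In the combination 2 were (Gabarapl1, 0.68, and Atg5, 0.62; 8.09% of all genes). Of 8 inflammasome genes, 1 was higher in anti-PD-1 (Casp4, 17.9 against 29.3 CPM; 7.36% of all genes). Of 7 interferon genes and inducers, Il27 was higher in anti-PD-1 (15.9 against 28.6 CPM) and Tnf in the combination (17.9 against 36.5). Il12a had 1 UMI in control and 69, 34 and 133 in the other libraries, a log2 ratio of 6.27 (3.75 to 11.60) for anti-PD-1, while Il12b was lowest in the combination (8.18 against 1.92 CPM).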

How the data were processed

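For each library the authors deposited a matrix of unnormalized UMI counts, and for the series 2 tables that give each cell a cluster number. Per the labels' protocols the libraries came from version 1 of the 10x 3′ kit with 98-base reads. Per the submitters' processing notes Cell Ranger, Seurat and mm10 were used, with versions, annotation and filters not given in the sources used here. Reads of a 129S6 strain were counted on this reference, and the effect of strain differences was not tested. Counts were summed over cells of a class or cluster and divided by that group's total (CPM). Ratios have exact conditional binomial 95% intervals; the calculation was tested on simulated counts, which do not hold the clumping of counts by cell. The named genes are the 10 members, 2 lists in full, up to 4 genes of each other list with large ratios in myeloid cells, and the 10 most like genes, of which 1 item is not reported here and is left out of its list. Members, lists and alternatives were chosen with earlier results of these data known. Scrublet (scanpy 1.11.5, Python 3.11.15) marked 2 of 14491 cells, so it did not work at its own threshold, and leaving out the top 3% of scores per library was used as an alternative. Of the listed cells, 2 had no matrix column.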

Additional observations from a re-analysis of the deposited data

Results flagged for a closer look

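In the anti-CTLA-4 library the myeloid and lymphoid classes, each summed over its clusters, differed from control in opposite directions. Each had a counting interval that excluded 0. Of the 7 lymphoid clusters taken singly, anti-CTLA-4 was above control in 2 and below it in 5. Only clusters 9 (-0.39) and 10 (-0.84) had intervals that excluded 0. For the summed level of the 10 genes the myeloid log2 ratio was 0.42 and the lymphoid one -0.43, a gap of 0.85. Among single genes the gap was 1.46 for Iigp1, 1.16 for Gbp5, 1.04 for Gbp2, 1.00 for Gbp4, 0.86 for Gbp7 and 0.81 for Igtp. With 1 library per group, the difference between the classes was not tested. Beside it stand the lymphoid shares of the C1q genes and Lyz2, lowest in the same library, and the share of the Foxp3-led cluster 10, also lowest there. Among the lymphoid clusters of low member level, 9 and 14 held more of the lymphoid UMIs in anti-CTLA-4 than in control. Cluster 9 held 34.0% against 19.4%, and cluster 14 held 14.0% against 4.35%. The NK cell-like cluster 5, also of low level, held less (14.3% against 17.6%). With the control makeup the lymphoid ratio was -0.22 in place of -0.43, and the myeloid one 0.44. The part of free RNA was not tested.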

How the results depend on the processing

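For the summed level, each log2 ratio to control kept its direction under all alternatives run, except that of the myeloid combination. In the myeloid clusters anti-PD-1 (0.83) ranged from 0.73 to 0.93: it was 0.76 without cluster 0, 0.93 with median-of-ratios scaling and 0.73 with the control makeup. Anti-CTLA-4 (0.42) was 0.32 with cells thinned and 0.54 with median-of-ratios scaling. The combination (0.01) was 0.072 without cluster 0, -0.038 thinned, 0.19 with median-of-ratios scaling and -0.071 with the control makeup. That scaling raised all myeloid ratios, by 0.12 under anti-CTLA-4 and 0.18 in the combination. In the lymphoid clusters anti-PD-1 (0.08) ranged from 0.036 to 0.23 over the alternatives. It was 0.21 with cells classed by marker genes and 0.23 with the control makeup. Anti-CTLA-4 (-0.43) was -0.31 by marker genes, -0.32 thinned and -0.22 with the control makeup. The combination (-0.16) was -0.070 by marker genes. For Gbp2 in the myeloid combination the ratio of 0.24 became -0.16 with the control makeup. The cause was not tested beyond what each alternative changes. At 2-fold, 3 members (Gbp2, Gbp4 and Gbp5) were higher in myeloid anti-PD-1 instead of 7, beside 2.58% of genes. Leaving out Iigp1, or the top cell of each library as applied to single genes and clusters, was chosen after seeing the data. Irgm2, Tgtp1 and lymphoid Gbp5 are limited by their low counts. No paired analysis was possible because each group has 1 library.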
